A study of Mus musculus with 7 samples.

Results

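The Slc22 and Slco families of membrane transporters were described across 7 mouse tissues. Members were the gene names made of Slc22a and a number, or of Slco, a number, a letter and a number, and 40 of the 50354 gene names in the expression table met this rule. The 39 described here are 24 Slc22 genes and 15 Slco genes. In the GENCODE annotation, 38 of them are protein-coding and Slco6b1 is a transcribed pseudogene. Total RNA, depleted of rRNA, was sequenced from 3 fat depots, namely visceral (VAT), subcutaneous (SCAT) and brown adipose tissue (BAT), and from liver, kidney, cortex and skeletal muscle (called muscle here). By their labels, all 7 libraries came from wild-type C57BL/6 mice aged 36 weeks, with the diet given as NCD. The paper names the mice of its panel of 7 tissues as lean C57BL/6N. There was 1 library per tissue, and the labels state neither the sex nor the number of animals behind it. Differences between tissues therefore have no replicate check, no p-value was computed, and every ratio below compares single libraries.

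Slc22 and Slco proteins carry organic cations, anions, carnitine, bile acids, hormones, prostaglandins and many drugs across the plasma membrane. In kidney, those on the blood side of proximal tubule cells take up solutes for secretion and others on the urine side exchange them, while in liver they bring bile acids, bilirubin and drugs into hepatocytes. ABC exporters and proton antiporters then move the solutes out of these cells, into bile or urine.

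Levels are given as FPKM, fragment counts scaled to transcript length and to library size, and ratios as differences of log2(FPKM + 0.1), a scale that understates the difference between low values. No fragment counts were used, so the depth behind a value is unknown. An exact 0 can be a failed estimate in this table: the albumin gene Alb was listed at 0 in liver with too little data, a value treated as missing, and had 253 FPKM in VAT. Zeros are therefore given only as listed at 0. The other liver markers, Apoa1 (2521 FPKM) and Ttr (3530 FPKM), were highest in liver, and the labelled tissue matched its markers in kidney (Umod 930 FPKM), cortex (Snap25 215 FPKM), BAT (Ucp1 6552 FPKM) and muscle (Ckm 8592 FPKM). Myh4, a fast fibre myosin, had no usable value in muscle, and Acta1 had none in any tissue, so the match in muscle rests on Ckm. Adiponectin (Adipoq) had 330 FPKM in VAT, 110 in SCAT and 258 in BAT. VAT also held genes of the epididymis, with Crisp1 at 1386 FPKM, Lcn5 at 1119 and Adam7 at 134, and SCAT held genes of lymphocytes (Ms4a1 50.6 FPKM, Cd79a 35.6, Cd3e 3.4) and of the exocrine pancreas (Ctrb1 35.9 FPKM, Cpa1 29.9, Cela1 11.5). BAT held genes of muscle, with Ckm at 166 FPKM and Myh4 (its locus being named Myh8 as well) at 87.5 FPKM. Xist was at most 0.104 FPKM and the Y-linked gene Ddx3y 13.1 to 49.3 FPKM across the libraries.

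The members were strongly divided between tissues. Of the 39 genes, 33 had at least 1 FPKM in any tissue, 25 had at least 10 FPKM and 4 had at least 100 FPKM (Slco1b2, Slc22a12, Slco1a1 and Slc22a18). Without loci of several gene names 31 had at least 1 FPKM, and with loci on the annotated strand only 30 did. Enrichment in a tissue required a level there of 1 FPKM or more that exceeded each of the others by 2 or more on the log2 scale, that is 4-fold. By this rule 20 of the 33 members (60.6%) were enriched in a tissue, beside 23% of all 19122 gene names with at least 1 FPKM in any tissue and 21.4% of the protein-coding ones. Kidney held 13 of them, 39.4% of the 33, beside 2.55% of all names. Liver held 2 (3.82% of all names), cortex 2 (8.32%), VAT 2 (1.24%) and muscle 1 (3.63%), while SCAT (2.67%) and BAT (0.779%) held 0. The median log2 ratio of the highest over the next highest tissue was 2.58 for the 33 members and 0.72 for all names. At the other end, 3 members (Slc22a5, Slc22a23 and Slc22a27) had at least 1 FPKM in all 7 tissues, which 46.4% of all names did, and for Slc22a27 this rests on a locus that also carries the name Gm24951. The 6 members below 1 FPKM throughout were Slc22a16, a carnitine carrier of testis, Slc22a20, listed at 0 in every tissue, Slco4a1, a thyroid hormone carrier with 0.690 FPKM in kidney, and the testis genes Slco6b1, Slco6c1 and Slco6d1, which like Slc22a16 stayed under 0.1 FPKM.

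**Figure D1:**
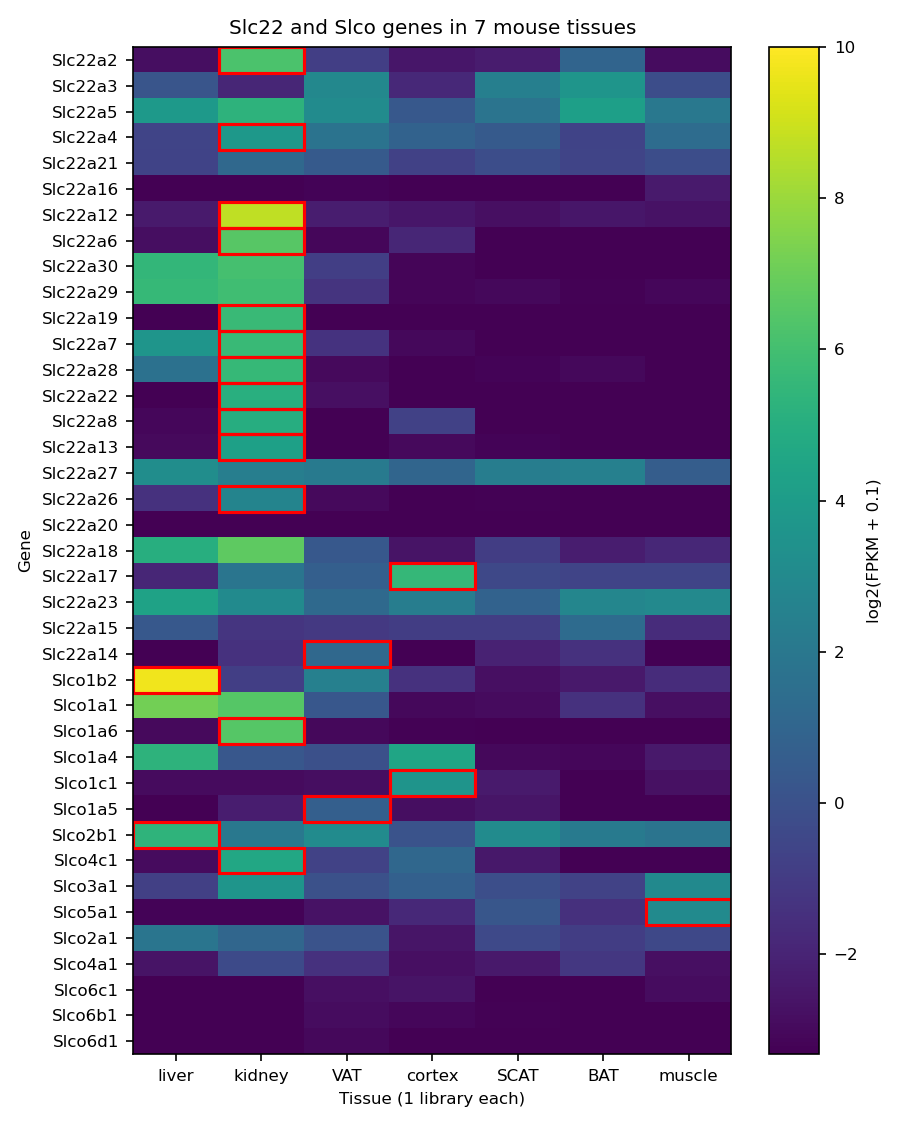
Level of the 39 Slc22 and Slco genes (rows, grouped by role) in 7 tissues (columns, 1 library each), as log2(FPKM + 0.1) in colour, with a red frame where a gene met the 4-fold rule. The frames fall mostly in the kidney column, which holds 13 of the 20.

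The promoters of 6 members are shown because these genes carry the main contrasts: Slco1b2, the highest in liver, with its neighbours Slco1c1, enriched in cortex, and Slco1a1, shared by liver and kidney, and the kidney genes Slc22a6, Slc22a8 and Slc22a12. Each sequence is the 250 bases before the RefSeq start on GRCm38.p6, written 5′ to 3′ on the gene's strand, with capitals marking the nuclear receptor half-site AGGTCA and the TATA box letters TATAAA on either strand.
Slco1b2 (chr6:141629268-141629517, plus strand): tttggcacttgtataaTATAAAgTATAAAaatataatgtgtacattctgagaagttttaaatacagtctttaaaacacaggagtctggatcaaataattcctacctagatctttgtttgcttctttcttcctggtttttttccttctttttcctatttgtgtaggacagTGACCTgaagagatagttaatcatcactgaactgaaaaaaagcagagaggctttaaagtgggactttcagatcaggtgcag
Slco1a1 (chr6:141946963-141947212, minus strand): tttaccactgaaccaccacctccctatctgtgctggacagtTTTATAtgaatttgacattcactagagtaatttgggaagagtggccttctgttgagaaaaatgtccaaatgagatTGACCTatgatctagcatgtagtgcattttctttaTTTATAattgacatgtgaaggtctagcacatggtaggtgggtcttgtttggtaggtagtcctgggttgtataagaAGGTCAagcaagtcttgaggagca
Slco1c1 (chr6:141524104-141524353, plus strand): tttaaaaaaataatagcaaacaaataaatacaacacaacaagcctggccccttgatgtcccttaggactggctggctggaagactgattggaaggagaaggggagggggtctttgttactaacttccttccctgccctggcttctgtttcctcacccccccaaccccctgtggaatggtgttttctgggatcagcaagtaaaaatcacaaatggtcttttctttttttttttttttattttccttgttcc
Slc22a6 (chr19:8617746-8617995, plus strand): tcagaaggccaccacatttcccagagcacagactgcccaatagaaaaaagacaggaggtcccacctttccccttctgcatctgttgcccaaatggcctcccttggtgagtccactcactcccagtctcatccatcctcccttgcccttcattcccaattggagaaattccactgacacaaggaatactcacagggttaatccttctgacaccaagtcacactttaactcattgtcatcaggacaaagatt
Slc22a8 (chr19:8592932-8593181, plus strand): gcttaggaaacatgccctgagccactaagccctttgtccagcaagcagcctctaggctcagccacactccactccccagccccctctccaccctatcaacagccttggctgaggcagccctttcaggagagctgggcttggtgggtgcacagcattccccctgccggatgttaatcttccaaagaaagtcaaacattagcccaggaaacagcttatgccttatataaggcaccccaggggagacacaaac
Slc22a12 (chr19:6543071-6543320, minus strand): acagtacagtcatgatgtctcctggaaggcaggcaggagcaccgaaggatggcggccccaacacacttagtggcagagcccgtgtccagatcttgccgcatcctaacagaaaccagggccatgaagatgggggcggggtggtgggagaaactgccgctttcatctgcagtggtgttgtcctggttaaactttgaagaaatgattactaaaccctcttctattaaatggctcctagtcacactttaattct
In Slco1b2 the half-site begins at position -81 from the start and the TATA letters at -234 and -227. In Slco1a1 the half-site begins at -134 and -24 and the TATA letters at -209 and -99. Neither motif was found in the windows of Slco1c1, Slc22a6, Slc22a8 and Slc22a12, and no 2 matches overlapped. Only the exact letters were searched, so a variant such as tatataa near the end of the Slc22a8 window was not marked. RefSeq places the start of Slc22a8 1928 bases from the outermost start in GENCODE, and those of the other 5 within 43 bases.

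RefSeq promoters of 35 members were used, and those of Slc22a7, Slc22a21, Slco3a1 and Slco5a1 were not analysed here. The half-site occurred in 4 of the 35 windows, those of Slc22a14 (at -70) and Slc22a27 (at -119) beside the pair above, and in 14% of all 32851 promoter windows of the same length. The TATA letters occurred in 4 as well, with Slco1a5 (at -97) and Slco2a1 (at -29), and in 12.4% of all windows. The shares of members were thus near those of all promoters, and a match of a few letters is a description and not a binding site. RefSeq places the start of Slc22a14 175158 bases from the outermost start in GENCODE. The distance was 22372 bases for Slco1a6 and 19775 bases for Slco2a1.

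Kidney expressed 26 of the 39 members at 1 FPKM or more and was the highest tissue for 19 of the 33. The organic anion transporters made up most of this group: of 13 genes, 12 had at least 1 FPKM and 9 were enriched in kidney. Slc22a12, which reabsorbs urate from the tubule fluid, had 424 FPKM in kidney, 0.111 in VAT, 0.0937 in liver, 0.0758 in cortex, 0.0758 in BAT, 0.0569 in muscle and 0.0477 in SCAT. No other tissue came within a log2 value of 10.97. Slc22a6 and Slc22a8, the anion carriers Oat1 and Oat3 that take up drugs and metabolites from blood, were enriched in kidney as well. Slc22a6 had 91.6 FPKM in kidney, 0.174 in cortex, 0.0388 in liver and 0.0161 in VAT, with 0 listed for SCAT, BAT and muscle. Slc22a8 had 31.8 FPKM in kidney, 0.496 in cortex, 0.0197 in liver and 0.00315 in VAT, with 0 listed for the same 3 tissues. For both, cortex was the second tissue, with log2 ratios of 8.39 and 5.74. In bulk tissue, more cells of a type and more RNA per cell cannot be told apart.

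Slc22a19 (Oat5), an anion exchanger of the urine side, had 52.2 FPKM in kidney, with 0 listed for all 6 other tissues. Slc22a22, a prostaglandin carrier, had 34.1 FPKM in kidney and 0.0466 in VAT, with 0 listed elsewhere. Slc22a13, a carrier of urate and nicotinate, had 18.96 FPKM in kidney, 0.0265 in liver, 0.0255 in cortex and 0.0104 in SCAT, and was listed at 0 in VAT, BAT and muscle. These 3 genes were near the floor outside kidney. Slc22a7 (Oat2) behaved differently, since liver came close to the limit of the rule: it had 51.7 FPKM in kidney, 12.1 in liver, 0.288 in VAT and 0.0235 in cortex, and was listed at 0 in SCAT, BAT and muscle, a log2 ratio of 2.09.

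The remaining anion transporters, Slc22a26 to Slc22a30, belong to a rodent branch of the family that lies in a row on chromosome 19. Slc22a28 had 48.2 FPKM in kidney, 3.03 in liver, 0.0266 in VAT, 0.0210 in BAT and 0.0105 in SCAT, and was listed at 0 in cortex and muscle. Slc22a26 had 6.31 FPKM in kidney, 0.276 in liver, 0.0284 in VAT and 0.00572 in SCAT, and was listed at 0 in cortex, BAT and muscle. Both were enriched in kidney, with log2 ratios of 3.94 and 4.09. Slc22a30 instead had similar levels in both organs, at 67.3 FPKM in kidney and 45.3 in liver, with 0.459 in VAT, 0.0154 in cortex and 0 listed in SCAT, BAT and muscle. Slc22a29 had 60.7 FPKM in kidney, 48.9 in liver, 0.295 in VAT, 0.0210 in SCAT, 0.0165 in muscle, 0.0143 in cortex and 0.00551 in BAT, but this locus also carries the name Slc22a30, and the locus named Slc22a29 alone reached only 0.768 FPKM in kidney and 0.400 in liver. The locus of Slc22a27 also carries the name Gm24951 and had 1.44 to 9.11 FPKM in all tissues, highest in liver, whereas its own locus reached 0.433 FPKM in liver. The levels of Slc22a28 and Slc22a30 are uncertain between the genes, because 36.7% of the 101-base stretches in Slc22a28 transcripts, the length of 1 read per the labels, also occur in another member, mostly Slc22a30, and 20.9% of those in Slc22a30. The share was 7.03% for Slc22a27 and 7.26% for Slc22a29, whose loci carry a second name, and 0% for Slc22a26.

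The organic cation transporters described here differed in tissue. Slc22a2 (Oct2), the cation carrier on the blood side of the tubule, had 75.5 FPKM in kidney, 1.87 in BAT, 0.451 in VAT, 0.0999 in SCAT, 0.0752 in cortex, 0.0429 in liver and 0.0338 in muscle. It was enriched in kidney, and BAT was its second tissue. Of the kidney and proximal tubule markers, Umod, Slc34a1 and Slc5a12 were listed at 0 in BAT, while Lrp2 had 0.00389 FPKM, Kap 0.885 FPKM and Slc5a2 1.62 FPKM there, and their part in the BAT value was not tested. Slc22a3 (Oct3), a low-affinity carrier of monoamines outside neurons, was a gene of the fat depots. It had 12.4 FPKM in BAT, 7.35 in VAT, 5.25 in SCAT, 1.06 in liver, 0.781 in muscle, 0.187 in cortex and 0.168 in kidney, so that the 3 adipose libraries lay above the other 4. This locus lies opposite to the annotated gene. On the annotated strand Slc22a3 had 6.89 FPKM in BAT, 3.60 in VAT, 2.27 in SCAT and 0.643 in liver.

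Of the 4 carriers of carnitine and ergothioneine, 3 had at least 1 FPKM in any tissue and Slc22a5 alone had it in all 7. Slc22a5 (Octn2), which imports carnitine for fatty acid oxidation, had 38.5 FPKM in kidney, 18.3 in BAT, 14.0 in liver, 8.65 in VAT, 3.87 in muscle, 3.44 in SCAT and 1.19 in cortex. Slc22a4 (Octn1), a carrier of ergothioneine, had 13.6 FPKM in kidney, 3.27 in VAT, 2.49 in muscle, 1.71 in cortex, 1.28 in SCAT, 0.557 in liver and 0.543 in BAT. Slc22a4 met the rule by little (log2 ratio 2.02, but 1.57 and no longer enriched with median ratio size factors). Slc22a5 did not meet it (1.07). Slc22a21 (Octn3) lies between them and was low in all tissues, at 0.492 to 2.13 FPKM with kidney highest, and only 1.23 FPKM, in VAT, at its locus on the annotated strand. Slc22a5 and Slc22a21 share sequence, with 12.7% and 10.5% of their 101-base stretches occurring in another member.

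Among the other Slc22 genes, Slc22a17, a receptor for the iron-carrier protein lipocalin 2, had the highest level of any member in cortex. It had 46.8 FPKM in cortex, 3.47 in kidney, 1.54 in VAT, 0.651 in SCAT, 0.574 in BAT, 0.555 in muscle and 0.165 in liver, a log2 ratio of 3.71. Slc22a18, from an imprinted region, had 103 FPKM in kidney, 32.4 in liver, 1.15 in VAT, 0.434 in SCAT, 0.183 in muscle, 0.110 in BAT and 0.0642 in cortex, and was thus a gene of kidney and liver that fell short of the rule (1.66). Slc22a23, whose substrate is not established, had 20.4 FPKM in liver, 8.20 in kidney, 7.52 in muscle, 6.93 in BAT, 4.91 in cortex, 2.28 in VAT and 1.73 in SCAT. It was the most even of the members at 10 FPKM or more, spanning every tissue. Slc22a15 was low, with 2.38 FPKM in BAT and 1.17 in liver as its highest values. Slc22a14, known from sperm, had 2.14 FPKM in VAT, 0.276 in BAT, 0.271 in kidney and 0.146 in SCAT, and was listed at 0 in liver, cortex and muscle. This locus lies opposite to the annotated gene, and on the annotated strand Slc22a14 had 0.556 FPKM in VAT and was not enriched.

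The Slco1 genes lie in a row on chromosome 6, from 141524368 to 142322981 on GRCm38, and each had its own distribution. Slco1b2, which takes up bile acids, bilirubin and statins into hepatocytes, was the highest member of all. It had 849 FPKM in liver, 5.48 in VAT, 0.451 in kidney, 0.274 in cortex, 0.219 in muscle, 0.0881 in BAT and 0.0440 in SCAT, a log2 ratio of 7.25, or 10.59 without VAT. Its VAT level was 0.646% of its liver level, beside 0.701% for Apoa1, 0.602% for Serpina1a and a median of 1.06% for the 216 gene names enriched in liver with at least 100 FPKM there; the part of liver RNA in this value was not tested. Slco1a1, a carrier of bile acids and steroid conjugates, had 144 FPKM in liver, 89.5 in kidney, 1.13 in VAT, 0.269 in BAT, 0.0476 in muscle, 0.0306 in SCAT and 0.0217 in cortex. Slco1a4, which also works at the blood-brain barrier, had 39.3 FPKM in liver, 22.5 in cortex, 1.11 in kidney, 0.863 in VAT, 0.0890 in muscle, 0.0236 in SCAT and 0.0185 in BAT. Neither was enriched in 1 tissue, since each had a second one close by (log2 ratios of 0.68 and 0.80).

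Slco1a6 had 88.9 FPKM in kidney, 0.0271 in liver, 0.0218 in VAT and 0.00565 in cortex, and was listed at 0 in SCAT, BAT and muscle. Slco1c1, a thyroxine carrier of the brain's vessels and choroid plexus, had 11.7 FPKM in cortex, 0.0955 in SCAT, 0.0496 in muscle, 0.0426 in VAT, 0.0323 in kidney, 0.0291 in liver and 0 listed in BAT. These neighbours of the liver genes were therefore near the floor in liver. Of the brain endothelium markers, Slc2a1 was highest in cortex (5.38 FPKM), Flt1 had 3.43 FPKM there against 2.99 to 11.7 FPKM elsewhere, and Cldn5 was listed at 0, having at most 0.0293 FPKM in any tissue. The general endothelium markers Pecam1, Cdh5 and Kdr were each lowest in cortex, summing to 2.36 FPKM there and to 18.4 to 46.9 FPKM in the other tissues. Of the choroid plexus markers, Otx2 was highest in cortex (1.01 FPKM), Folr1 (1.90 FPKM in cortex and 147 in kidney) and Kl (0.745 and 35.1 FPKM) were highest in kidney, and Kcnj13 had 0.920 to 2.13 FPKM in all tissues (1.71 in cortex). Ttr, which the choroid plexus makes as well as liver, had 195 FPKM in cortex, its second tissue. The part of these cells in the cortex values of Slco1c1, Slco1a4 and Slc22a8 was not tested. Slco1a5 had 1.55 FPKM in VAT, 0.111 in kidney, 0.0708 in SCAT and 0.0398 in cortex, and was listed at 0 in liver, BAT and muscle. Slc22a14 and Slco1a5 were the 2 members enriched in VAT, and both lost the call with a pseudocount of 1 and with an 8-fold rule. The 3 epididymis markers sum to 2639 FPKM in VAT and to at most 1.99 FPKM in any other tissue. The part of epididymis in the level of these 2 members was not tested.

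**Figure D2:**
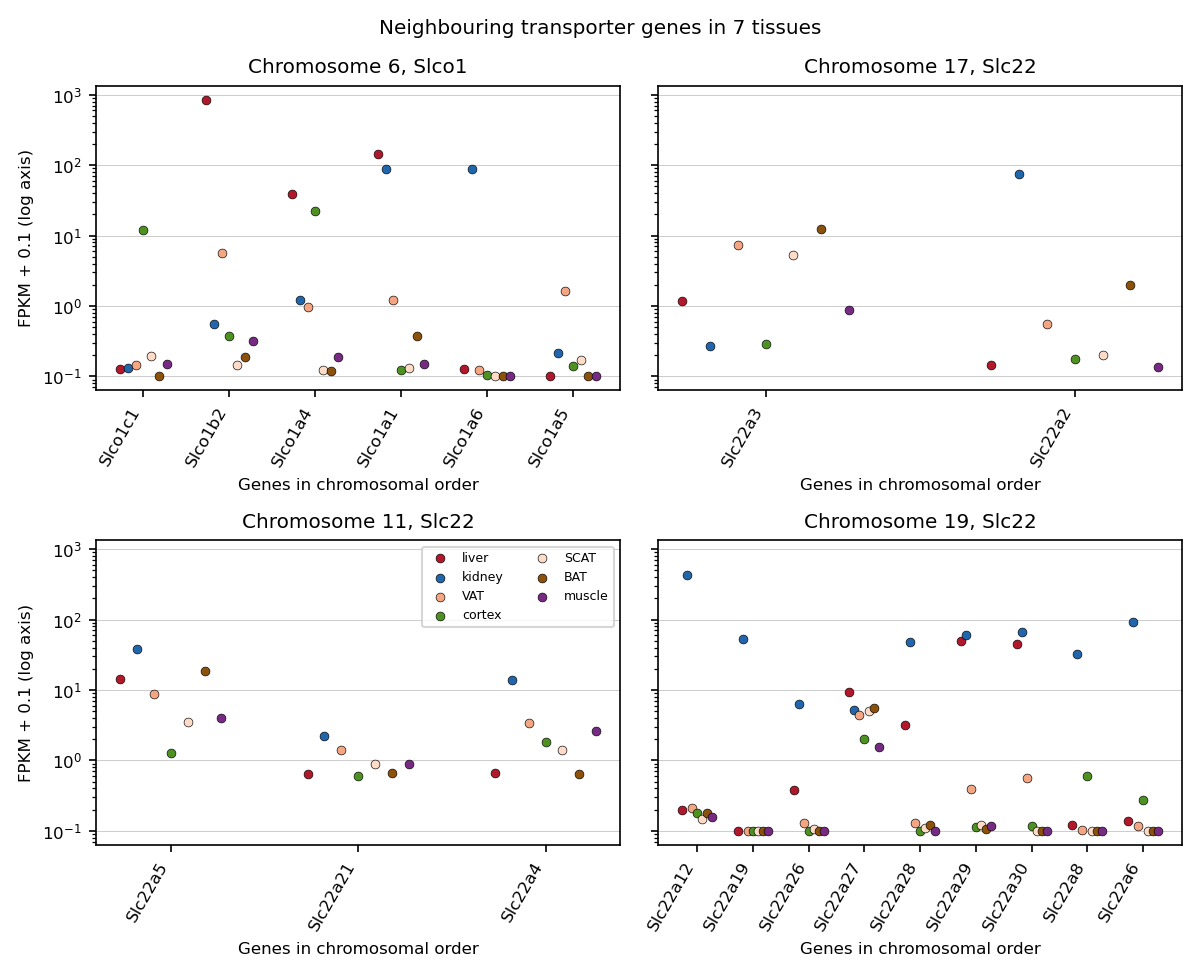
FPKM + 0.1 (vertical log axis) of neighbouring Slco1 and Slc22 genes, in chromosomal order along the horizontal axis, with 1 coloured point per tissue library. On chromosome 6 the highest point changes from cortex (Slco1c1) to liver (Slco1b2, Slco1a4, Slco1a1), kidney (Slco1a6) and VAT (Slco1a5).

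Neighbouring members were compared next. There were 19 pairs of consecutive members within 1 Mb, and in 16 of them both genes had at least 1 FPKM in any tissue. The highest tissue was the same in 9 of the 16 (56.2%), beside 28.1% of 13910 consecutive pairs of protein-coding genes, with kidney the highest tissue of 19 of the 33 members. Of the 9, 4 include Slc22a21, which was highest in VAT on its annotated strand, or Slc22a29, whose locus carries the name Slc22a30 too. Without the pairs of Slc22a21 and of the 2 genes with such a locus, Slc22a29 and Slc22a27, the highest tissue was shared in 5 of 10. The pair Slc22a8 and Slc22a6, separated by 6.20 kb, had nearly the same profile, with Pearson's r of 0.99 over the 7 tissues. The r was 0.95 for Slc22a19 and Slc22a26, both highest in kidney, and 0.94 for Slc22a28 and Slc22a29, where signal of Slc22a30 cannot be told apart. Slco1c1 and Slco1b2 had r of -0.20, and Slc22a3 and Slc22a2 on chromosome 17 had r of -0.20 as well, with fat against kidney. These values describe 7 libraries, whose points are shared by all pairs.

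Of the other Slco genes, 1 each was enriched in liver, kidney and muscle. Slco2b1, a broad carrier of steroid sulfates and drugs, had 40.8 FPKM in liver, 8.51 in VAT, 8.39 in SCAT, 4.26 in BAT, 3.95 in kidney, 3.38 in muscle and 0.944 in cortex. It was enriched in liver (log2 ratio 2.25, but 1.69 and no longer enriched with median ratio size factors) and was also the highest Slco gene in each adipose depot. Slco4c1, a carrier of digoxin and thyroid hormone on the blood side of the tubule, had 25.0 FPKM in kidney, 2.09 in cortex, 0.525 in VAT, 0.0810 in SCAT, 0.0311 in liver and 0 listed in BAT and muscle. Slco3a1, which carries prostaglandins and thyroxine, had 12.0 FPKM in kidney, 8.0 in muscle, 1.57 in cortex, 0.885 in VAT, 0.827 in SCAT, 0.518 in BAT and 0.467 in liver. Slco5a1, whose substrates are not established, was the only member enriched in muscle (log2 ratio 2.83, short of an 8-fold rule, and 4.51 without SCAT, its second tissue), where it had 8.22 FPKM, with 1.07 in SCAT, 0.266 in BAT, 0.187 in cortex, 0.0588 in VAT, 0.0113 in kidney and 0.00809 in liver. Muscle was thus the highest tissue of Slco5a1 and the second of Slco3a1. Slco2a1, the prostaglandin transporter, was low, with 3.57 FPKM in liver and 1.98 in kidney as its highest values.

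Liver and kidney, the main organs of organic ion uptake, were then compared directly. Of the 39 members, 29 had at least 1 FPKM in either organ, and their median log2 difference of liver minus kidney was -2.09, beside 0.05 for all 14637 names compared. At least 4-fold higher in kidney were 15 of the 29 (51.7%), beside 10.6% of all names, and at least 4-fold higher in liver were 4 (13.8%), beside 9.35% of all names. The 4 genes higher in liver were Slco1b2 (log2 difference 10.59), Slco1a4 (5.03), Slco2b1 (3.33) and Slc22a3 (2.11), the last with only 1.06 FPKM in liver. With the annotated strand only, or with median ratio size factors, this count was 3. Those higher in kidney included the 13 genes enriched there, together with Slco3a1 and with Slc22a17, which was enriched in cortex. Slc22a12 (-11.10), Slco1a6 (-9.45) and Slc22a6 (-9.37) were at the far end. The remaining 10 genes lay within 4-fold, among them Slco1a1, Slc22a29 and Slc22a30. All 4 of the kidney's proximal tubule markers (Lrp2, Slc5a2, Slc5a12 and Slc34a1) were highest in kidney, at 80.3 to 505 FPKM.

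**Figure D3:**
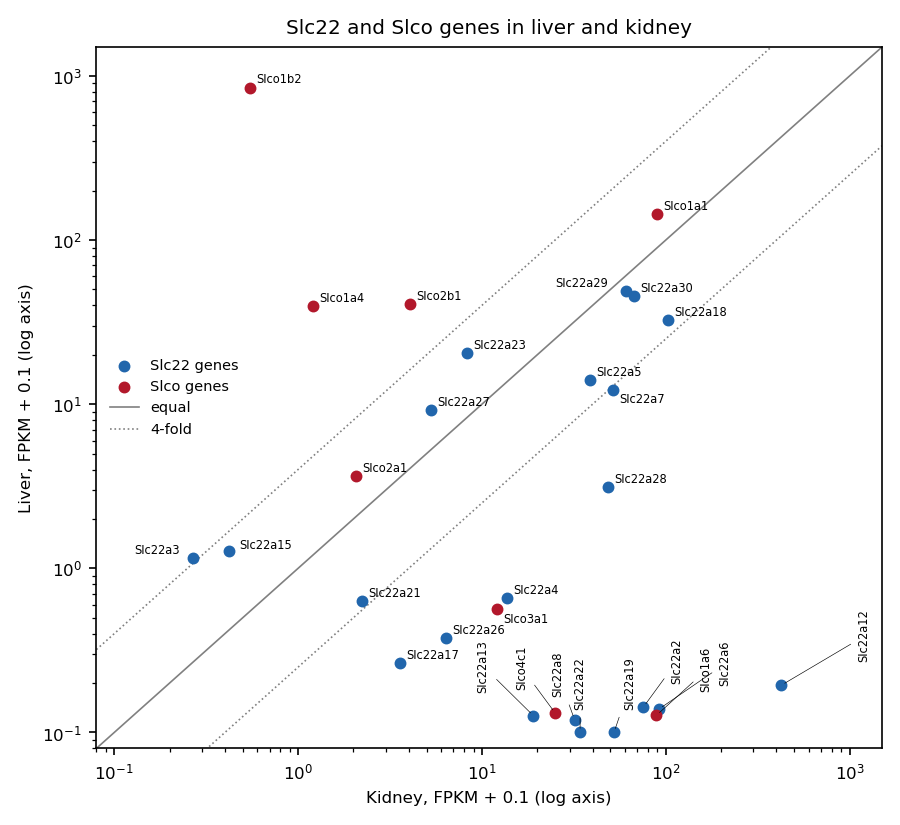
Level of the 29 members with at least 1 FPKM in liver or kidney, with kidney on the horizontal and liver on the vertical axis, both FPKM + 0.1 on log axes, and dotted lines at a 4-fold difference. The 15 points below the lower dotted line are genes at least 4-fold higher in kidney than in liver, mostly Slc22, and Slco1b2 stands apart at the upper left.

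Summed over 1 locus for each gene, the highest, the families reached 1361 FPKM in kidney and 1266 FPKM in liver. Signal of Slc22a30 may enter these sums more than once, because the locus taken for Slc22a29 carries both names, and without it they were 1299.9 and 1217 FPKM. In kidney the Slc22 genes summed to 1137 FPKM and the Slco genes to 224 FPKM, while in liver the Slc22 genes summed to 189 FPKM and the Slco genes to 1076 FPKM. Slco1b2 alone made up 78.8% of the Slco total in liver, and Slc22a12 37.3% of the Slc22 total in kidney. The other tissues were far lower, at 98.1 FPKM for both families in cortex, 54.5 in VAT, 55.8 in BAT, 38.8 in muscle and 30.7 in SCAT. Cortex was led by Slc22a17, with 79.8% of its Slc22 total, and BAT by Slc22a5, with 37.0%.

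**Figure D4:**
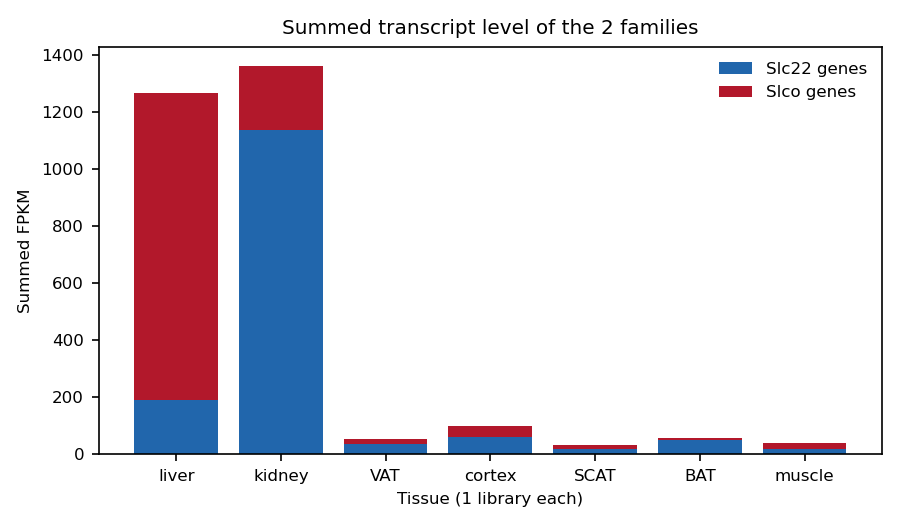
Summed FPKM of the Slc22 genes (blue) and the Slco genes (red, stacked) in 7 tissues, 1 library each. Kidney is mostly Slc22 (1137 FPKM) and liver mostly Slco (1076 FPKM), and the other 5 tissues stay below 100 FPKM.

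The transporters that act after these carriers, and the regulators of the pathway, were taken from a list of 35 genes, 33 of which had at least 1 FPKM in any tissue. Of these, 15 were enriched in a tissue, 8 in liver and 7 in kidney, again beside 23% of all names for any tissue. In liver the enriched exporters were Abcb11, the bile salt export pump (67.4 FPKM), Abcc3 (103 FPKM) and Abcc6 (26.9 FPKM), together with the bile acid importer Slc10a1 (177 FPKM) and the anion carrier Slc17a2 (70.5 FPKM). The next highest tissues of these 5 genes were at 0.847, 7.68, 1.30, 23.6 and 0.565 FPKM. The drug-sensing receptors Nr1i2 (11.9 FPKM) and Nr1i3 (136 FPKM) were enriched in liver as well. In kidney the enriched genes were the phosphate and urate carriers Slc17a1 (270 FPKM) and Slc17a3 (179 FPKM), the scaffold Pdzk1 (152 FPKM), which binds apical transporters, the proton antiporter Slc47a1 (143 FPKM), the dicarboxylate carrier Slc13a3 (71.6 FPKM) and the bile acid carrier Slc10a2 (19.2 FPKM). Each of these 6 had its second highest level in liver, at 7.06, 21.3, 15.96, 34.4, 1.37 and 2.41 FPKM. The enriched genes under 10 FPKM were Slc17a4 in liver and Slc13a2 in kidney. Levels were close for Hnf4a, a nuclear receptor of both organs (207 FPKM in liver and 159 in kidney).

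**Figure D5:**
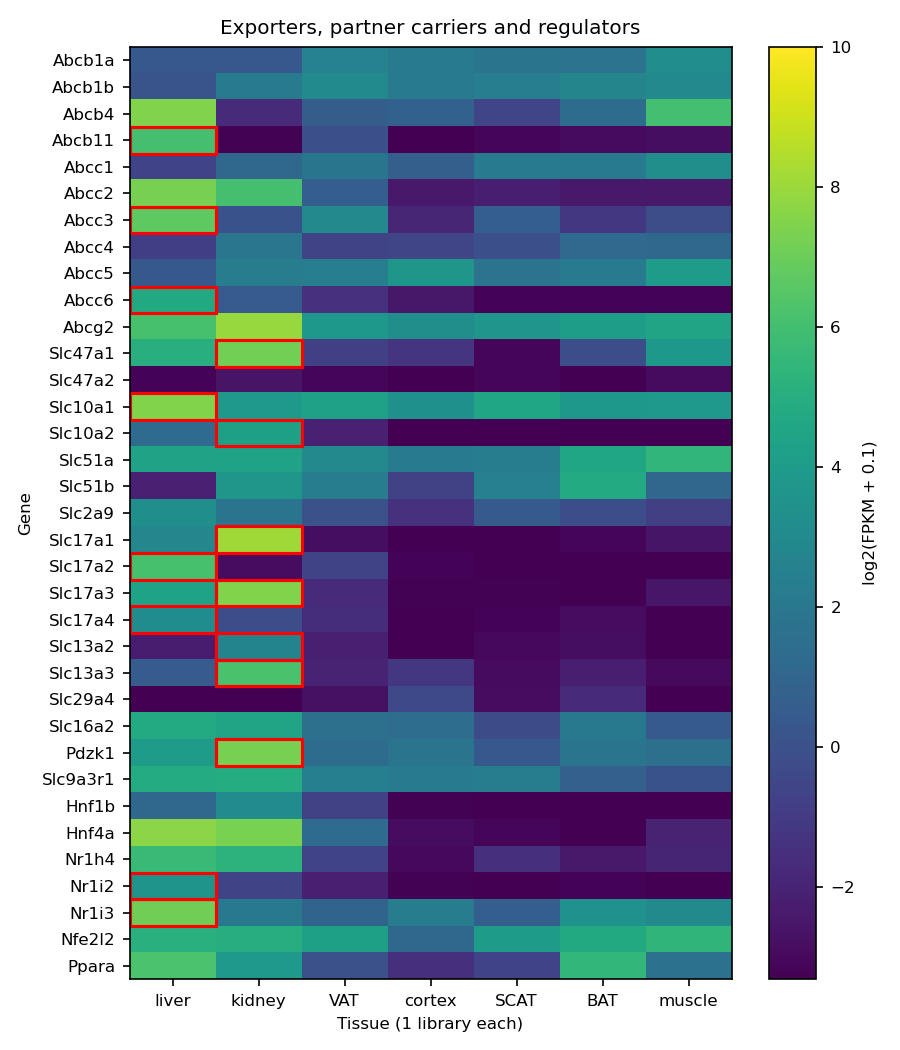
Level of 35 exporters, partner carriers, scaffolds and regulators (rows) in 7 tissues (columns, 1 library each), as log2(FPKM + 0.1) in colour, with a red frame where a gene met the 4-fold rule. All 15 frames lie in the liver (8) and kidney (7) columns.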

How the data were processed

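RNA-Seq of 7 mouse tissues was used, with 1 library per tissue. According to the paper's methods and the submitters' processing notes, rRNA reads were removed with Bowtie2 2.2.9, the rest was aligned with STAR 2.6.0c to GRCm38 (mm10), and transcripts were assembled and compared with Cufflinks 2.2.1 and its Cuffdiff program. The authors deposited FPKM for 94339 loci in 21 comparisons of tissue pairs. Their fold changes, test statistics and p-values were not used. The table gives no counts, so depth and precision are unknown, and no interval could be given.

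The 151 loci with status FAIL were dropped, and zeros with status LOWDATA were missing (0 member loci had either). The locus with the highest FPKM stood for a name. Strand was read from the order of loci. The paper's methods name directional and strand-specific library kits for its RNA-Seq. The strand setting of the counting is not given in the sources used here. Reads of a gene and of its opposite strand may therefore not be separated. Genes were located with GENCODE M21, which holds 92.1% of the names. Values were compared as log2(FPKM + 0.1). Samples were grouped by tissue label. The members, lists, motifs and the markers were chosen with earlier results of these data known. The text leaves out 1 gene that met the rule and 1 gene of the partner list, which are not reported here and enter no count of members or partners. Every other member is accounted for, those enriched or at 10 FPKM or more with all 7 values. Alternatives covered pseudocount, minimum, fold, scaling, loci, strand and the adipose libraries. The code of the rule was checked on simulated data with large planted changes, which does not test the calls made here. Python 3.11.15, pandas 2.3.3, NumPy 2.4.6 and matplotlib 3.10.9 were used.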

Additional observations from a re-analysis of the deposited data

How the results depend on the processing

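Under 13 alternatives the count of members enriched in any tissue ranged from 14 to 23, around the 20 reported, and those enriched in kidney or cortex and the 2 liver and kidney counts stayed within 1.5 times their values. The count in liver fell from 2 to 1 with an 8-fold rule and with median ratio size factors, which left Slco2b1 out (log2 ratio 1.69 after scaling). The 8-fold rule also took the count in muscle from 1 to 0 (Slco5a1) and left out Slc22a4 and Slc22a7. Slc22a4 lost its call with the same scaling (1.57) and with a pseudocount of 1 (1.77). Over all names, 4401 were enriched as reported, 7707 with a 2-fold rule and 2896 with an 8-fold rule. The scaling shifted the log2 values of all genes by 0.42 in VAT, 0.49 in SCAT, 0.19 in cortex, -0.27 in BAT and -0.38 in muscle. Slc22a14 and Slco1a5 lost their calls with a pseudocount of 1, with a minimum of 5 FPKM and with the 8-fold rule, and could not be called without VAT, their only tissue at 1 FPKM or more. On the annotated strand only, Slc22a14 lost its call (1.53) and Slc22a21 was highest in VAT rather than kidney. Without VAT and SCAT, Slc22a3 was enriched in BAT (3.43). Leaving out VAT alone or SCAT alone, added after the data were seen, gave 18 and 20 enriched members. No paired analysis was possible because the labels give 1 library for each tissue.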

Other observations

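The table held 80 loci that carry a member's name. For 24 members with at least 1 FPKM there were loci on both strands, by the order of the table, and in 22 of the 24 the highest tissue was the same on both, with a median Pearson's r of 0.99 over the 7 tissues. For 11 members the higher locus, used in the report, lies opposite to the annotated gene. They were Slc22a3, Slc22a7, Slc22a13, Slc22a14, Slc22a19, Slc22a21, Slc22a26, Slc22a27, Slc22a29, Slco4c1 and Slco5a1. Slc22a19 had 52.2 FPKM in kidney at the opposite locus and 26.6 FPKM on its annotated strand, and Slc22a7 had 51.7 and 25.4 FPKM. Slco4c1 had 25.0 and 6.26 FPKM in kidney, and Slco5a1 8.22 and 4.52 FPKM in muscle. The exceptions were Slc22a21 (VAT on the annotated strand and kidney on the other) and Slco2b1 (liver, and VAT on the other strand at 1.31 FPKM).

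Several exporters were not restricted to liver and kidney. Abcb4, the phospholipid exporter of the bile canaliculus, had 176 FPKM in liver, 65.3 in muscle and 0.204 in kidney. Abcg2, a urate and drug exporter, had 244 FPKM in kidney and 70.8 in liver, and 9.32 to 21.8 FPKM in the other 5 tissues. The bile acid carrier subunits Slc51a and Slc51b had their highest levels outside liver, at 43.4 FPKM in muscle and 27.9 FPKM in BAT.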
